A study of Mus musculus with 12 samples.

Results

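The genes described here are 34 genes of microglia, macrophages and the complement system, taken by symbol from a table of read counts for 35976 genes of the mouse retina. They were grouped by role into 13 genes of microglial identity and receptors, 3 of macrophages and antigen presentation, 8 of the lysosome, 3 of reactive microglia and 7 of complement. All 34 were in the table, and 21 of them had more than 3 reads in every library, against 12327 of all genes. The 13 that did not were Tmem119, Aif1, Itgam, Trem2, Fcer1g, Ptprc, Mrc1, Cd74, Lyz2, Cd68, C3, C4b and C3ar1.

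By its title, the series is about loss of caspase-1, the protease encoded by Casp1, in oxygen-induced retinopathy (OIR), a mouse model of the retinal neovascularization of premature infants. Retinal RNA was sequenced from the 3' end in 12 libraries, 3 each from WT and Casp1 KO pups kept in normoxia or put through OIR. The WT groups were C57BL/6 pups of both sexes. In OIR they were kept with their dams in 75% oxygen from postnatal day 7 to 12 and then in room air, and normoxic pups stayed in 21% oxygen. WT retinas were taken at postnatal day 15, and the labels put both OIR groups at 3 days of relative hypoxia. For the Casp1 KO groups the labels give the genotype and the same conditions, while the Casp1 allele, the age and oxygen level of those pups and the number of animals per library are not given in the sources used here. Nothing says that libraries came from separate animals, so p-values measure the spread between libraries.

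Microglia are the resident macrophages of the retina. They survey the tissue through receptors such as Cx3cr1 and P2ry12, depend on signals through Csf1r, and when activated they take up debris and pruned vessels and change the content of their lysosomes. Complement is a cascade of secreted proteins that tags surfaces for removal. In its classical branch C1q binds a surface, C4 and then C3 are cleaved and deposited, receptors such as C3ar1 sense the released fragments, and C1 inhibitor, encoded by Serping1, restrains the first step. In nervous tissue microglia are the main source of C1q.

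Sequencing depth and the labels bear on how these values can be read. Libraries held 3391203 to 22815830 reads, and all but WT normoxia replicate 2 held at most 5657873. That library, the deepest, had no read for 268 genes for which the other libraries predicted at least 20, against 0 to 4 such genes in each of the other 11. The members Mrc1, C4b, C3ar1 and Cd74 were at 0 in it, Cd74 as in every other normoxia library. WT OIR replicate 3 was unlike its own replicates, as the chi-square of its counts against theirs, per degree of freedom, was 14.6 and 13.9, and other pairs of replicates had 3.41 to 10. Casp1 itself had 0 to 2 reads in the WT normoxia libraries and 0 to 3 in WT OIR, but 10 to 45 in those labelled Casp1 KO normoxia and 16 to 22 in those labelled Casp1 KO OIR. It was called higher in both Casp1 KO groups, which goes against the labels, so every direction below is between libraries as labelled. The cell types of a retina were present, with 37300 to 44800 CPM (reads scaled to 1000000 per library) from 12 genes of retinal neurons, and each of the 13 microglial identity genes had reads in every group. In whole retina, more cells of a type cannot be told apart from more RNA per cell.

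The C1q genes form a cluster on mouse chromosome 4. In the GENCODE vM21 annotation of GRCm38, C1qb lies at 136880129 to 136886187, C1qc at 136889804 to 136893065 and C1qa at 136895917 to 136898803, all protein-coding and on the minus strand. Promoter sequences (RefSeq, GRCm38.p6) were matched for 12 of the 16 members that passed the test in at least 1 comparison. Those of C1qb, C1qc, C3ar1 and Mrc1 are shown because these complement and macrophage genes were among the members called higher in OIR, each in at least 1 genotype. No sequence was taken for C1qa, C4b, Serping1 and Cd74. Each line is the 250 bases before the annotated start, read 5′ to 3′ on the gene's strand. Capitals mark GAGGAA or its reverse complement TTCCTC, the core bound by PU.1, the myeloid factor that the member Spi1 encodes.
C1qb, chr4:136886201-136886450, minus strand: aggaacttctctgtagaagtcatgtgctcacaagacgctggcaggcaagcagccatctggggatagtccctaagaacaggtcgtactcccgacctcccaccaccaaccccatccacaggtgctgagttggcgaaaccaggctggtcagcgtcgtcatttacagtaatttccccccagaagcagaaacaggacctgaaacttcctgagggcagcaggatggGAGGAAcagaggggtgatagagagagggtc
C1qc, chr4:136892915-136893164, minus strand: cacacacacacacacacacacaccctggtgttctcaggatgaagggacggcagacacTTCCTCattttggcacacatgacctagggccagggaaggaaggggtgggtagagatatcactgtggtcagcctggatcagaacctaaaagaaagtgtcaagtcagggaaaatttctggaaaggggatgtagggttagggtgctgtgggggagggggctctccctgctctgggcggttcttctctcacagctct
C3ar1, chr6:122856158-122856407, minus strand: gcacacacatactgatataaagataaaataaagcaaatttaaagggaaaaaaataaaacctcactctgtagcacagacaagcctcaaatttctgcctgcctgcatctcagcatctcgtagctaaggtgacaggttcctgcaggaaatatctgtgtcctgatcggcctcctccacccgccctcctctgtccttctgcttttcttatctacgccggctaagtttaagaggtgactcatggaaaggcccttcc
Mrc1, chr2:14229164-14229413, plus strand: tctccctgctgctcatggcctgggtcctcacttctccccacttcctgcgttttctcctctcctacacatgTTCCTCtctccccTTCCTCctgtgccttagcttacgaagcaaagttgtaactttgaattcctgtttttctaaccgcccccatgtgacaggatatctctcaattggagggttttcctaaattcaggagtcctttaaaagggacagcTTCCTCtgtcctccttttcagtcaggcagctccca

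GAGGAA was searched on both strands of the 250 bases. It occurred once in C1qb, once in C1qc, where it is part of the longer form GAGGAAGT, 3 times in Mrc1 and not in C3ar1. C3, a complement gene called higher in Casp1 KO OIR, had a sequence without it, which is not shown. Of the 12 genes with a sequence, 6 held it (Aif1, Mrc1, Cd63, Grn, C1qb and C1qc), in 6 of 14 sequences. Over all 32851 promoters of the reference 23.3% held GAGGAA and 2.44% held GAGGAAGT, which overlaps it. A match is a string of letters and no evidence of binding.

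In OIR, 4 of the 7 complement genes (C1qa, C1qc, C4b and Serping1), Mrc1 and Cd63 rose in both genotypes. C3ar1 rose in WT, and C1qb, C3, Gpnmb and the lysosomal genes Ctsd, Lgmn and Grn rose in Casp1 KO, while their interaction of OIR and genotype passed for none. By edgeR's quasi-likelihood test, 7 of the 34 members were higher in WT OIR than in WT normoxia at an adjusted p under 0.05, where 1.58% of all genes tested were called higher. They were Mrc1, Cd63, C1qa, C1qc, C4b, C3ar1 and Serping1. None was lower, against 2.29% of all genes, with 2 lower at an unadjusted p under 0.05 (Lgmn and Lpl) and 0 lower by DESeq2. In Casp1 KO, 12 members were higher in OIR, where 2.61% of all genes were called higher. These were Mrc1, Ctsd, Lgmn, Cd63, Grn, Gpnmb, C1qa, C1qb, C1qc, C3, C4b and Serping1. There too none was lower, against 2.03% of all genes, with 0 lower at an unadjusted p under 0.05 and 0 by DESeq2. The WT and Casp1 KO comparisons share no library, and 6 members were called in both, which is 6 of the 7 in WT and 6 of the 12 in Casp1 KO. The share of all genes called in both was not counted, so this overlap cannot be called particular to the members.

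Over the 21 members with more than 3 reads in every library, the median log2 fold change in OIR was 0.38 in WT and 0.61 in Casp1 KO, against -0.01 and 0.02 over the 12327 genes passing the same limit. Of these 21, 16 had a positive value in WT and 18 in Casp1 KO. Without WT normoxia replicate 2 there were 4 members higher in WT OIR, Aif1, Mrc1, C3ar1 and Serping1, against 1.14% of all genes. Without WT normoxia replicate 1 there were also 4, Mrc1, Cd63, C3ar1 and Serping1, against 0.978% of all genes.

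**Figure D1:**
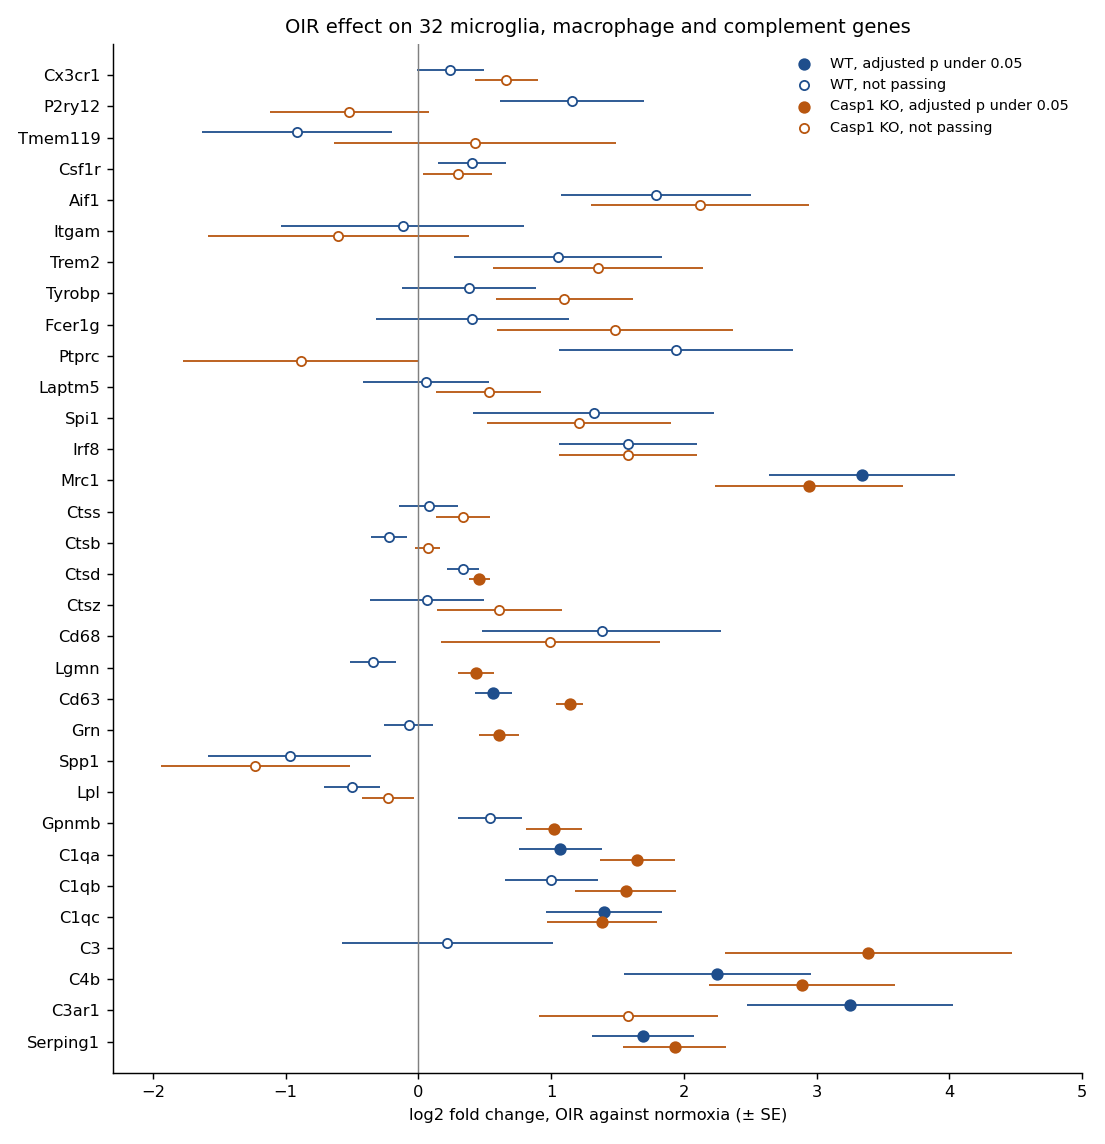
Log2 fold change in OIR against normoxia (x axis, ± SE derived from the test statistic) for 32 of the 34 genes, in WT (blue) and Casp1 KO (orange), filled where the adjusted p was under 0.05. Cd74 and Lyz2 are left out because a group had no reads. The complement genes and Mrc1 sit to the right of 0 in both genotypes, with C3 close to 0 in WT alone, and the lysosomal genes Lgmn, Grn and Ctsb lie to the left of 0 in WT and to the right in Casp1 KO.

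C1qa, which encodes the A chain of C1q, was read at 7.81, 8.90 and 10.4 CPM in the WT normoxia libraries and at 18.9, 19.7 and 18.9 CPM in WT OIR. In Casp1 KO it was at 8.57, 4.94 and 10.6 CPM in normoxia and at 20.5, 31.5 and 24.3 CPM in OIR. Every OIR library was above every normoxia library. The log2 fold change was 1.07 ± 0.31 (SE) in WT, with an adjusted p of 0.019, and 1.65 ± 0.28 in Casp1 KO, with an adjusted p of 8.94e-07. In WT the adjusted p was 0.117 without WT normoxia replicate 1, 0.0741 without WT normoxia replicate 2 and 0.0859 without WT OIR replicate 2.

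C1qb, the B chain, was at 7.99, 5.07 and 9.35 CPM in WT normoxia and 17.6, 14.5 and 12 CPM in WT OIR. Its levels in Casp1 KO were 3.83, 5.52 and 5.07 CPM in normoxia and 14.7, 12 and 15.2 CPM in OIR. The groups did not overlap in either genotype, but only the Casp1 KO difference passed the test. It was 1.56 ± 0.38 on the log2 scale in Casp1 KO with an adjusted p of 0.00197, and 1.0 ± 0.35 in WT with an adjusted p of 0.0879.

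C1qc, the C chain, was at 3.20, 4.67 and 3.70 CPM in WT normoxia and 11, 10.1 and 10.4 CPM in WT OIR. In Casp1 KO the values were 4.01, 4.65 and 4.35 CPM in normoxia and 10, 11.6 and 11.9 CPM in OIR. The 2 conditions were far apart relative to the spread within them. This was a log2 fold change of 1.4 ± 0.44 in WT (adjusted p = 0.0379) and 1.38 ± 0.41 in Casp1 KO (adjusted p = 0.0235). The WT call was lost on leaving out any 1 of the 6 libraries, with adjusted p-values up to 0.164, and the Casp1 KO call on leaving out any of 4 libraries.

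**Figure D2:**
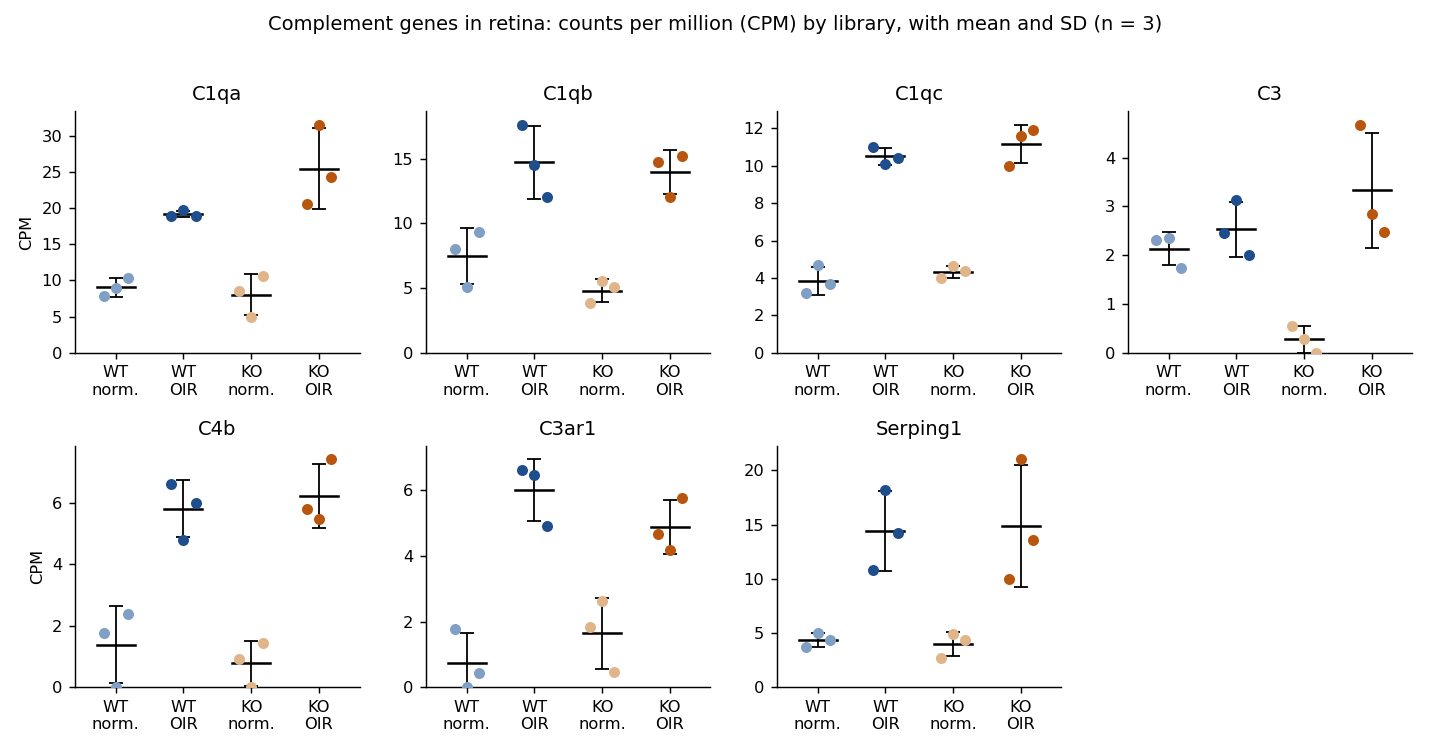
CPM (y axis, from 0) of the 7 complement genes in each library (points), with the group mean (line) and SD (bar, cut at 0) for n = 3, in WT and Casp1 KO (KO) under normoxia and OIR. The C1q genes, C4b, C3ar1 and Serping1 are higher in each OIR library than in any normoxia library of the same genotype, while C3 overlaps between conditions in WT.

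C1q transcripts were also set against those of Cx3cr1, the fractalkine receptor, and Csf1r, the receptor that microglia need to survive. The summed CPM of the 3 C1q genes, divided by the sum of the 2 receptor genes, was 0.557, 0.428 and 0.684 in WT normoxia and 1.19, 0.98 and 0.728 in WT OIR. In Casp1 KO it was 0.562, 0.388 and 0.55 in normoxia and 0.958, 1.02 and 1.18 in OIR. All 6 OIR libraries lay above all 6 normoxia libraries, with WT OIR replicate 3 the lowest of the OIR libraries. The ratio is a description of these libraries and was given no test. It rests on 2 of the 13 identity genes, and other genes below the line could give another picture. Fold changes in OIR of the other identity genes ran from 0.53 (Tmem119) to 3.83 (Ptprc) in WT. In Casp1 KO they ran from 0.54 (Ptprc) to 4.36 (Aif1). That of Irf8 was 2.98 in each genotype, against 2 to 2.64 for the C1q genes in WT and 2.61 to 3.15 in Casp1 KO.

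**Figure D3:**
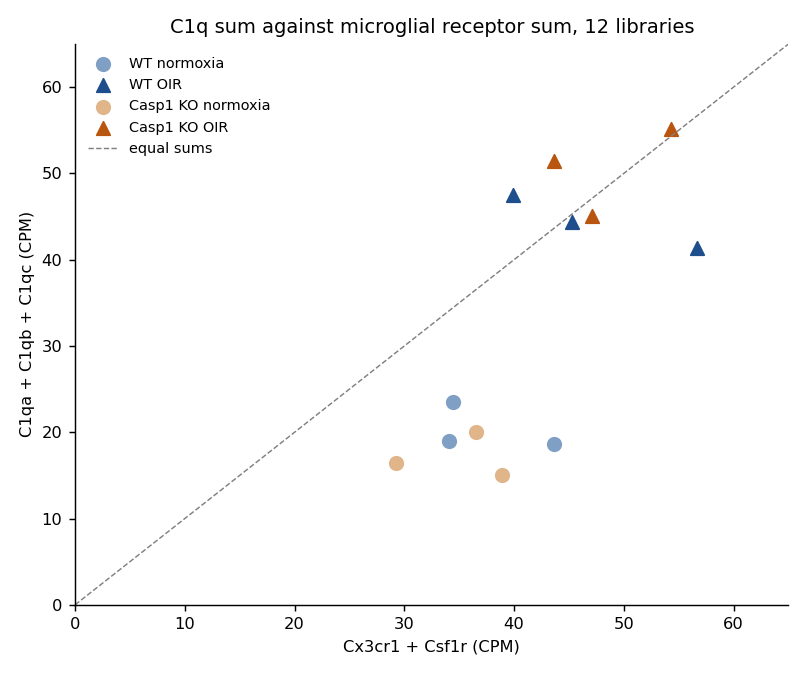
Sum of C1qa, C1qb and C1qc (y axis, CPM) against the sum of Cx3cr1 and Csf1r (x axis, CPM) in each of the 12 libraries, circles for normoxia and triangles for OIR. The normoxia libraries lie at C1q sums of 15.1 to 23.5 CPM and the OIR libraries at 41.3 to 55.2 CPM. The receptor sums in WT are 34.1, 43.6 and 34.4 CPM in normoxia and 39.9 to 56.7 CPM in OIR, overlapping through WT normoxia replicate 2. In Casp1 KO they do not overlap, at 29.2 to 38.9 CPM in normoxia and 43.6 to 54.3 CPM in OIR.

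C4b, which encodes complement component C4, was read few times. It had 10, 0 and 11 reads in WT normoxia and 27, 26 and 33 in WT OIR, and 5, 0 and 6 reads in Casp1 KO normoxia against 26, 25 and 36 in Casp1 KO OIR. All OIR libraries were above all normoxia libraries. OIR and normoxia differed by a log2 fold change of 2.25 ± 0.70 in WT (adjusted p = 0.0397) and 2.89 ± 0.70 in Casp1 KO (adjusted p = 0.00189). Without WT normoxia replicate 2, the deepest library, where C4b was at 0, the WT value was 1.46 with an adjusted p of 0.342. The WT call held in 5 of 14 alternatives. It was lost by DESeq2 (adjusted p = 0.208), by filterByExpr (0.2), with WT normoxia replicate 2 thinned (0.0517), with that library and WT OIR replicate 3 both left out (0.278) and on leaving out any 1 library other than WT normoxia replicate 3, while the Casp1 KO call held in all 12 alternatives run. C4a is a near-identical neighbouring copy, and the handling of reads that match both is not given in the sources used here. It had 0 to 9 reads per library, with 9 in WT normoxia replicate 2, so the split between the copies is uncertain.

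Serping1, the gene of C1 inhibitor, was at 3.73, 4.98 and 4.35 CPM in WT normoxia and 10.8, 18.2 and 14.2 CPM in WT OIR. The Casp1 KO values were 2.73, 4.94 and 4.35 CPM in normoxia and 10, 21 and 13.6 CPM in OIR. Each OIR library was thus above every normoxia library. The log2 fold change was 1.69 ± 0.38 in WT (adjusted p = 0.000755) and 1.93 ± 0.39 in Casp1 KO (adjusted p = 5.53e-05), and both calls held under all the alternatives run, 15 in WT and 13 in Casp1 KO.

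C3ar1, the receptor for the C3a fragment, had 10, 0 and 2 reads in WT normoxia and 27, 35 and 27 in WT OIR. In Casp1 KO it had 10, 9 and 2 reads in normoxia and 21, 19 and 28 in OIR. OIR libraries were higher in both genotypes without overlap. The difference passed in WT, at 3.25 ± 0.78 on the log2 scale (adjusted p = 0.00197, or 0.047 without WT normoxia replicate 2 and 0.063 with filterByExpr), and not in Casp1 KO, at 1.58 ± 0.68 (adjusted p = 0.214). The difference between these effects was -1.70 ± 1.04, with an adjusted p of 0.633.

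C3, the component on which all branches of complement converge, was the complement gene whose log2 fold changes in the 2 genotypes lay furthest apart. It had 13, 53 and 8 reads in WT normoxia, equal to 2.31, 2.36 and 1.74 CPM, and 2.45, 3.13 and 2.0 CPM in WT OIR. In Casp1 KO normoxia it had only 3, 1 and 0 reads, and in Casp1 KO OIR 21, 13 and 12. On the log2 scale the difference was 0.22 ± 0.79 in WT (adjusted p = 0.934) and 3.39 ± 1.08 in Casp1 KO (adjusted p = 0.0389). The Casp1 KO call was lost on leaving out any of 5 of its 6 libraries, with adjusted p-values up to 0.266, and with the replicate number as a block. The difference between the effects was 3.17 ± 1.32, with an adjusted p of 0.335. Of 22 other complement genes, Clu, which encodes the fluid-phase inhibitor clusterin, was the only one called, with a log2 fold change of 0.75 ± 0.08 in Casp1 KO OIR (adjusted p = 3.01e-19) and -0.15 ± 0.12 in WT OIR (adjusted p = 0.611). The difference between these effects was called too. In normoxia Clu was called lower in Casp1 KO than in WT.

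Summed over the 7 complement members, the 3 libraries of each group lay at 26, 28.6 and 32.4 CPM in WT normoxia and at 68.3, 74.0 and 77.0 CPM in WT OIR. The corresponding sums were 22.4, 22.9 and 26.3 CPM in Casp1 KO normoxia and 70.3, 80.6 and 88.7 CPM in Casp1 KO OIR. Complement transcripts are also made outside microglia, by glia, vessels and other macrophages. Of 10 markers of Müller glia and astrocytes, 2 were higher and 3 lower in WT OIR, with summed levels of 1880 to 1930 CPM against 2290 to 2460 CPM. In Casp1 KO OIR 7 were higher and 1 lower, with 2450 to 2530 CPM against 1690 to 1820 CPM. Gfap, the filament of reactive glia, was higher in both, at 68.0 to 88.6 CPM in WT OIR against 20.2 to 30.4 CPM. Of 10 endothelial markers 1, Pecam1, was higher in WT OIR and 0 passed in Casp1 KO OIR. Their summed level was at 136 to 219 CPM in WT OIR against 118 to 138 CPM, and at 148 to 186 CPM in Casp1 KO OIR against 145 to 158 CPM. The part of these cells in the complement values was not tested.

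Of the 13 genes grouped as microglial identity and receptors, not all of them particular to microglia, none passed the test in either genotype alone. Their summed level lay at 55.9 to 76.1 CPM in WT normoxia, 93.2 to 99.4 CPM in WT OIR, 56.0 to 68.6 CPM in Casp1 KO normoxia and 87.2 to 104 CPM in Casp1 KO OIR. These sums did not overlap between the conditions within a genotype.

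Cx3cr1 was read at 17.6, 25.0 and 15.7 CPM in WT normoxia and 20.6, 21.5 and 28.2 CPM in WT OIR. It stood at 12, 22.4 and 19.3 CPM in Casp1 KO normoxia and 29.3, 30.2 and 23.7 CPM in Casp1 KO OIR. The WT conditions overlapped and those of Casp1 KO did not. The log2 fold changes were 0.24 ± 0.25 (adjusted p = 0.679) and 0.66 ± 0.24 (adjusted p = 0.0884). Those of Csf1r were 0.40 ± 0.26 (adjusted p = 0.522) and 0.29 ± 0.26 (adjusted p = 0.641), from 16.5 to 18.7 CPM in the 6 normoxia libraries and 17.8 to 28.5 CPM in OIR. Within each genotype the Csf1r libraries of OIR lay above those of normoxia.

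P2ry12, a purinergic receptor of unactivated microglia, had opposite signs in the 2 genotypes. It was at 2.66, 3.96 and 1.74 CPM in WT normoxia and 9.31, 4.79 and 5.63 CPM in WT OIR, a log2 fold change of 1.16 ± 0.54 with an adjusted p of 0.32. In Casp1 KO it was at 2.55, 6.10 and 5.31 CPM in normoxia and 2.22, 0.876 and 6.38 CPM in OIR, a log2 fold change of -0.52 ± 0.60 with an adjusted p of 0.725. The difference between them was -1.69 ± 0.81, with an adjusted p of 0.471, and none of the 3 passed. Tmem119, another marker of resident microglia, lay at 1.60, 5.38 and 3.26 CPM in WT normoxia and 0.735, 4.23 and 0.545 CPM in WT OIR, and did not pass in any comparison.

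Irf8, a transcription factor that microglia require, was at 3.20, 1.65 and 3.70 CPM in WT normoxia and 11.8, 7.73 and 5.27 CPM in WT OIR. The Casp1 KO libraries had 2.73, 2.61 and 2.41 CPM in normoxia and 5.11, 8.32 and 9.67 CPM in OIR. All OIR libraries were above all normoxia libraries. This was a log2 fold change of 1.58 ± 0.52 in each genotype, with adjusted p-values of 0.0578 in WT and 0.051 in Casp1 KO. Spi1, which encodes PU.1, was at 1.24, 0.935 and 1.30 CPM in WT normoxia and 2.45, 4.05 and 2.18 CPM in WT OIR, a log2 fold change of 1.32 ± 0.91 (adjusted p = 0.554). It was at 1.64, 1.16 and 2.66 CPM in Casp1 KO normoxia and 4.22, 6.79 and 1.65 CPM in Casp1 KO OIR, at 1.21 ± 0.69 (adjusted p = 0.45).

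The effect of OIR over both genotypes was fitted to all 12 libraries with genotype as a covariate, which uses the same libraries as the comparisons above and is not independent of them. There 13 members were higher in OIR, against 2.32% of all genes tested, and none was lower, against 2.57% of all genes, with 2 lower at an unadjusted p under 0.05 (Lpl and Spp1) and 0 by DESeq2. The calls were Aif1, Irf8, Mrc1, Cd74, Ctsd, Cd63, Gpnmb, C1qa, C1qb, C1qc, C4b, C3ar1 and Serping1. Irf8 had a log2 fold change of 1.58 ± 0.38 (adjusted p = 0.0016), and C1qb 1.26 ± 0.27 (adjusted p = 0.000136). Aif1, which encodes the microglial protein IBA1, had 1.94 ± 0.55 (adjusted p = 0.0129), from 5, 57 and 0 reads in WT normoxia and 6, 1 and 5 in Casp1 KO normoxia to 11, 25 and 35 in WT OIR and 5, 28 and 22 in Casp1 KO OIR. The Aif1 call was lost without WT normoxia replicate 3, WT OIR replicate 3 or Casp1 KO OIR replicate 2.

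**Figure D4:**
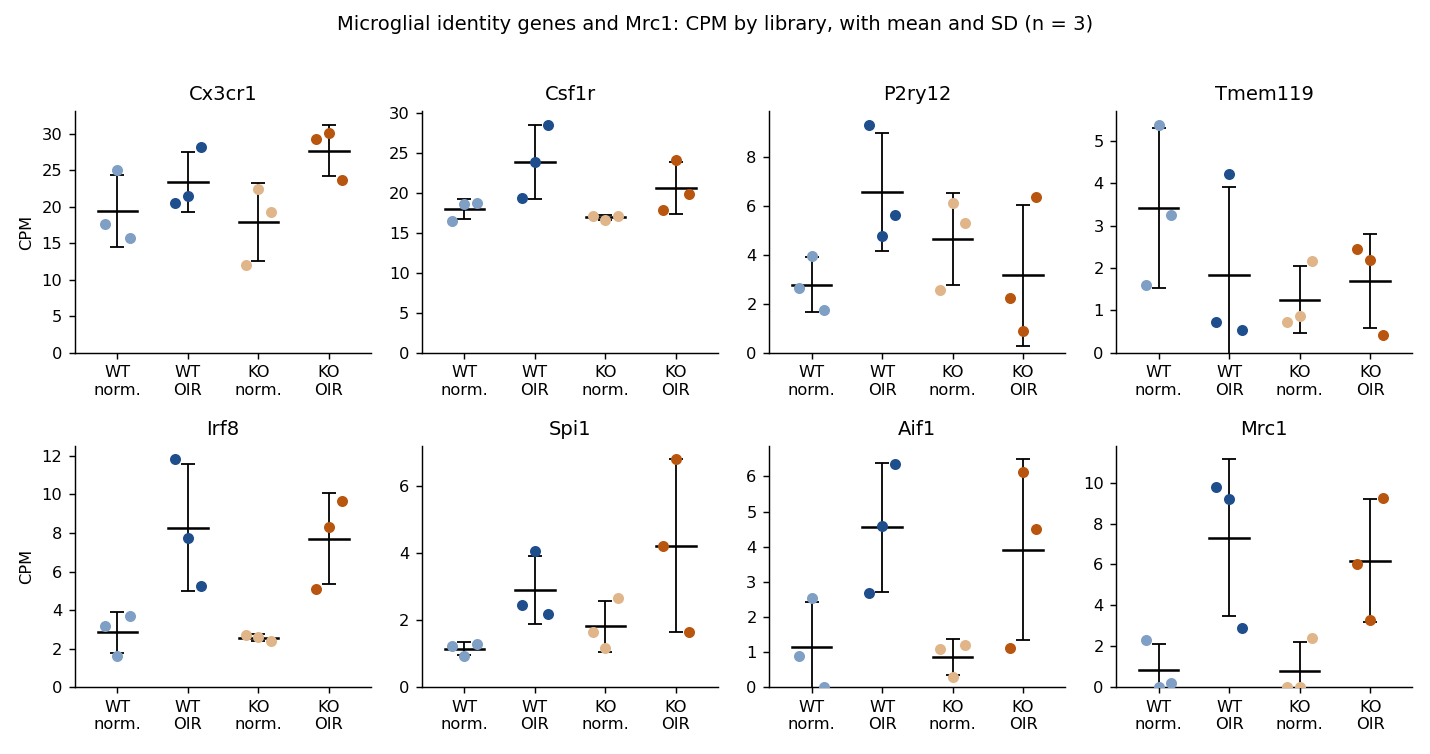
CPM (y axis, from 0) of 7 microglial identity genes and Mrc1 in each library (points), with group mean and SD (bars cut at 0) for n = 3. Irf8 and Mrc1 are higher in every OIR library than in any normoxia library. For the other 6 genes the OIR libraries overlap the normoxia libraries when the genotypes are pooled, while Csf1r does not overlap within either genotype.

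The other 6 identity genes did not pass in any comparison. Trem2, a lipid receptor of microglia, and Tyrobp, the adaptor through which it signals, had log2 fold changes of 1.05 ± 0.78 and 0.38 ± 0.51 in WT and 1.35 ± 0.79 and 1.10 ± 0.52 in Casp1 KO. Fcer1g, an adaptor of antibody receptors, was at 0.41 ± 0.73 in WT and 1.48 ± 0.89 in Casp1 KO. Laptm5, a lysosomal membrane protein of blood-derived cells, was at 0.06 ± 0.48 and 0.53 ± 0.40. Itgam, the alpha chain of complement receptor 3, was at -0.12 ± 0.92 and -0.60 ± 0.98, and Ptprc, the common leukocyte antigen, at 1.94 ± 0.88 and -0.89 ± 0.88. Of 26 other microglia genes, Hpgds was higher in WT OIR and Fcrls and Unc93b1 in Casp1 KO OIR, with 0 lower in either. Cx3cl1, the neuronal ligand of Cx3cr1, was lower in OIR in both genotypes, by a log2 fold change of -0.77 ± 0.20 in WT (adjusted p = 0.00683) and -0.57 ± 0.19 in Casp1 KO (adjusted p = 0.0497).

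Mrc1, the mannose receptor found on perivascular and other border macrophages, was among the members with the highest log2 fold changes. It had 13, 0 and 1 reads in WT normoxia and 40, 50 and 16 in WT OIR, and 0, 0 and 10 reads in Casp1 KO normoxia against 27, 15 and 45 in Casp1 KO OIR. No OIR library overlapped a normoxia library. The log2 fold change was 3.34 ± 0.70 in WT (adjusted p = 0.000186, or 0.014 without WT normoxia replicate 2) and 2.94 ± 0.71 in Casp1 KO (adjusted p = 0.00184). By DESeq2 neither passed, with adjusted p-values of 0.413 and 0.453, and the WT call was also lost with filterByExpr (0.0721) and the Casp1 KO call without Casp1 KO OIR replicate 3 (0.106). With so few normoxia reads the fitted log2 fold change ranged from 2.43 to 6.98 in WT and from 2.27 to 7.83 in Casp1 KO over the alternatives.

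Cd74, the invariant chain of MHC class II, had no read in any of the 6 normoxia libraries, and 4, 7 and 7 reads in WT OIR and 1, 3 and 4 in Casp1 KO OIR. Its mean level in WT OIR was 2.68-fold the mean floor of the normoxia libraries, set at 3 reads in each, and it did not pass there (adjusted p = 0.187). That mean floor, 0.44 CPM, is lowered by the 0.134 CPM of WT normoxia replicate 2, the library with zeros where reads were predicted. The error of the OIR reads is not counted, so this fold is no firm minimum. In Casp1 KO OIR the mean level of Cd74 was under the floor of the normoxia libraries, so no fold is given, and it did not pass (adjusted p = 0.462). Its call over both genotypes (adjusted p = 0.0389) was lost without any 1 of 11 of the 12 libraries, with adjusted p-values up to 0.15 over the alternatives. H2-Ab1, a class II beta chain and the only 1 of 6 MHC class II genes called, was higher in both genotypes, at 2.17 ± 0.65 in WT (adjusted p = 0.0276) and 2.51 ± 0.57 in Casp1 KO (adjusted p = 0.000707) on the log2 scale. Lyz2, lysozyme of myeloid cells, had no read in Casp1 KO normoxia and 6 in each Casp1 KO OIR library, a mean 1.81-fold the mean floor. It did not pass (adjusted p = 0.172), and it had 1 to 4 reads in each WT library.

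Markers of other blood-derived cells were sparse. The summed level of 9 neutrophil genes was 0 to 1.45 CPM in every library, with at least 7 of the 9 at 0 in each group, and that of 9 lymphocyte genes was 0.87 to 5.14 CPM. Of 12 other genes of border macrophages and monocytes, Pf4 was higher (log2 fold change 2.59 ± 0.72, adjusted p = 0.0142) and Lyve1 lower (-0.93 ± 0.26, adjusted p = 0.0165) in WT OIR, and 0 passed in Casp1 KO OIR. Haemoglobin and other red blood cell genes summed to 90.9, 277 and 397 CPM in WT OIR against 121 to 146 CPM in WT normoxia and 129 to 167 CPM in all Casp1 KO libraries, and 4 of the 5 were called higher in WT OIR. The part of blood in the values of Mrc1 and Cd74 was not tested.

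Of the 8 lysosomal genes, Ctsz and Cd68 had 466 and 147 reads over the 12 libraries and the other 6 had 2129 (Ctss) to 33524 (Ctsd). Cd63, a tetraspanin of late endosomes and lysosomes, was at 140, 116 and 111 CPM in WT normoxia and 153, 167 and 228 CPM in WT OIR. In Casp1 KO it was at 110, 116 and 115 CPM in normoxia and 222, 266 and 256 CPM in OIR. The OIR libraries were higher in both genotypes, and WT OIR replicate 3 reached the level of Casp1 KO OIR. In the fit, the log2 fold change was 0.57 ± 0.14 in WT (adjusted p = 0.00269) and 1.14 ± 0.10 in Casp1 KO (adjusted p = 4.12e-27). In WT the adjusted p was 0.0574 without WT normoxia replicate 2, and the call was also lost without WT normoxia replicate 3.

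Ctsd, the aspartic protease cathepsin D, was at 340, 438 and 363 CPM in WT normoxia and 517, 431 and 506 CPM in WT OIR. In Casp1 KO it rose from 420, 390 and 394 CPM to 544, 585 and 510 CPM. The WT conditions overlapped through WT normoxia replicate 2 and WT OIR replicate 2, and those of Casp1 KO did not. On the log2 scale the difference was 0.34 ± 0.12 in WT (adjusted p = 0.106) and 0.46 ± 0.08 in Casp1 KO (adjusted p = 7.65e-07).

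Grn encodes progranulin, which is needed for lysosomal function. It was at 38.7, 60.0 and 42.4 CPM in WT normoxia and 43.8, 43.1 and 49.4 CPM in WT OIR, and at 45.4, 40.4 and 53.9 CPM in Casp1 KO normoxia and 64.5, 88.7 and 58.2 CPM in Casp1 KO OIR. Casp1 KO OIR replicates 1 and 2 were above every other library, and replicate 3 was below WT normoxia replicate 2. The log2 fold change was -0.07 ± 0.19 in WT (adjusted p = 0.897) and 0.61 ± 0.15 in Casp1 KO (adjusted p = 0.00279), and the Casp1 KO call was lost without Casp1 KO normoxia replicate 2 or Casp1 KO OIR replicate 2.

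Gpnmb, a transmembrane glycoprotein of phagocytes and of pigment cells, was at 19.4, 19.3 and 19.1 CPM in WT normoxia and 31.3, 16 and 37.4 CPM in WT OIR. It went from 23.5, 21.5 and 13.5 CPM in Casp1 KO normoxia to 38.2, 36.6 and 43.6 CPM in Casp1 KO OIR. The WT OIR libraries lay on both sides of the WT normoxia level. OIR and normoxia differed by a log2 fold change of 0.54 ± 0.24 in WT (adjusted p = 0.28) and 1.02 ± 0.21 in Casp1 KO (adjusted p = 9.44e-05).

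Lgmn, the asparagine-specific protease legumain, varied widely between replicates. It was at 86.3, 44.7 and 69.1 CPM in WT normoxia and 34.3, 43.5 and 78.7 CPM in WT OIR, and at 52.5, 78.4 and 64.0 CPM in Casp1 KO normoxia and 78.5, 74.5 and 106 CPM in Casp1 KO OIR. All 4 groups overlapped with one another. In the fit, the log2 fold change was -0.35 ± 0.17 in WT (adjusted p = 0.377) and 0.43 ± 0.14 in Casp1 KO (adjusted p = 0.0344). In Casp1 KO 7 of 13 alternatives lost the call, 3 of them by leaving out a library, and without WT OIR replicate 3 Lgmn was called lower in WT OIR.

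**Figure D5:**
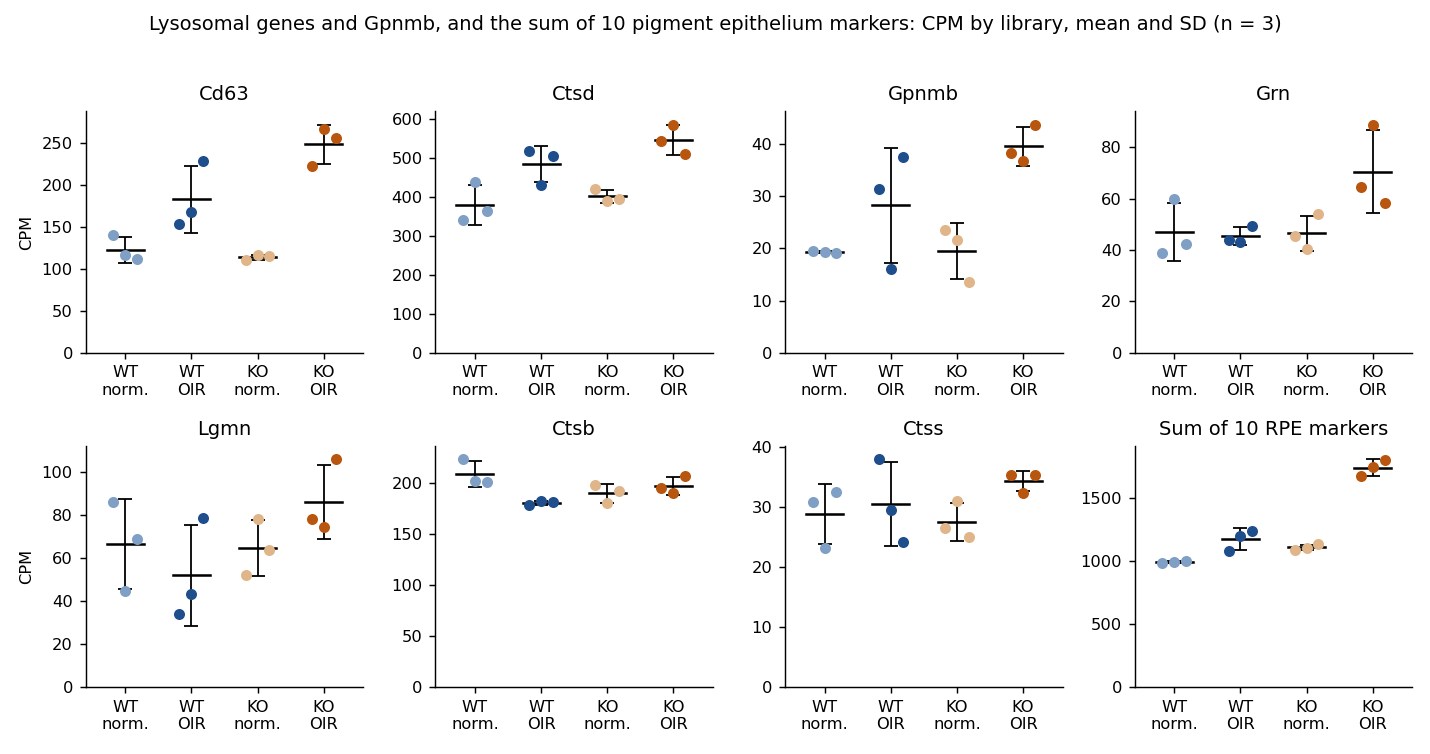
CPM (y axis, from 0) of 6 lysosomal genes and Gpnmb in each library (points), with group mean and SD for n = 3, and the summed CPM of 10 markers of the retinal pigment epithelium (RPE), whose points are drawn in order of size. The means of Cd63, Ctsd, Gpnmb, Grn, Lgmn and Ctss and the pigment epithelium sum are highest in Casp1 KO OIR, and that of Ctsb in WT normoxia. Ctsb and Ctss differ little between groups, and Lgmn overlaps in all of them.

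The remaining lysosomal members did not pass in any comparison. Ctsb, cathepsin B, had log2 fold changes of -0.22 ± 0.13 in WT and 0.07 ± 0.10 in Casp1 KO, Ctss, cathepsin S, 0.08 ± 0.22 and 0.33 ± 0.20, and Ctsz, cathepsin Z, 0.06 ± 0.43 and 0.61 ± 0.47. Cd68, a lysosomal glycoprotein used to mark phagocytes, was read too rarely to tell. It was at 1.07, 1.65 and 0.435 CPM in WT normoxia and 5.39, 2.58 and 0.909 CPM in WT OIR. In Casp1 KO it was at 1.82, 1.45 and 1.21 CPM in normoxia and 3.56, 4.60 and 0.823 CPM in OIR. The log2 fold changes were 1.38 ± 0.90 in WT (adjusted p = 0.542) and 0.99 ± 0.82 in Casp1 KO (adjusted p = 0.607). Of 27 other lysosome genes, Ctsh was higher in WT OIR, and Npc2 and Cst3 in Casp1 KO OIR, with 0 lower.

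Pigment epithelium, which is rich in lysosomes and may remain on a dissected retina, was highest by its markers in Casp1 KO OIR. That group also had the highest means of Gpnmb and of the lysosomal genes Cd63, Ctsd, Grn, Lgmn, Ctss and Cd68. The mean of Ctsb was highest in WT normoxia and that of Ctsz in WT OIR. The 10 pigment epithelium markers summed to 981 to 1000 CPM in WT normoxia, 1080 to 1240 CPM in WT OIR, 1090 to 1130 CPM in Casp1 KO normoxia and 1670 to 1800 CPM in Casp1 KO OIR. In Casp1 KO OIR 5 of the 10 were higher (Rpe65, Ttr, Rgr, Pmel and Dct) and 0 lower, and in WT OIR 2 were higher (Pmel and Dct) and 1 lower (Lrat). The part of the pigment epithelium in the lysosomal values was not tested.

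Of the reactive genes, Spp1, which encodes osteopontin, and Lpl, lipoprotein lipase, had negative values that did not pass. Spp1 was at 4.26, 6.41 and 3.48 CPM in WT normoxia and 2.45, 2.39 and 2.54 CPM in WT OIR, and at 4.56, 3.49 and 4.11 CPM in Casp1 KO normoxia and 1.33, 0.876 and 2.88 CPM in Casp1 KO OIR. Each OIR library was below each normoxia library. The log2 fold change was -0.97 ± 0.61 in WT (adjusted p = 0.522) and -1.23 ± 0.71 in Casp1 KO (adjusted p = 0.458). That of Lpl was -0.50 ± 0.21 in WT (adjusted p = 0.217) and -0.23 ± 0.19 in Casp1 KO (adjusted p = 0.619).

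Of 16 other genes of reactive microglia, B2m and Lgals3 were higher in WT OIR, and Apoe, Timp2 and B2m in Casp1 KO OIR, with 0 lower. B2m, the light chain of MHC class I, was at 69.6 to 89.7 CPM in WT normoxia and 114 to 143 CPM in WT OIR, and at 59.1 to 68.3 CPM in Casp1 KO normoxia and 124 to 165 CPM in Casp1 KO OIR. Apoe, the lipid carrier apolipoprotein E, had a log2 fold change of 0.12 ± 0.12 in WT OIR (adjusted p = 0.669) and 0.92 ± 0.07 in Casp1 KO OIR (adjusted p = 9.16e-33), and the difference between these effects passed (adjusted p = 1.2e-05). In normoxia Apoe was lower in Casp1 KO than in WT, at 480 to 488 CPM against 609 to 716 CPM (adjusted p = 2.51e-07). Apoe is also made by Müller glia and pigment epithelium, whose markers are given above.

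Between the genotypes in normoxia, 0 of the 33 members tested differed, against 0.476% of all genes called higher and 0.560% called lower in Casp1 KO. At an unadjusted p under 0.05, 1 member differed (C3, lower in Casp1 KO, adjusted p = 0.428), and DESeq2 called 0. Among members with more than 3 reads in every library the largest differences were of P2ry12, at 0.67 ± 0.60 on the log2 scale, Spi1, at 0.67 ± 1.08, C1qb, at -0.61 ± 0.46, Ctsz, at -0.61 ± 0.47, and Tyrobp, at -0.54 ± 0.59. Ctsz was at 8.88, 5.25 and 7.18 CPM in WT normoxia and 5.83, 2.61 and 5.07 CPM in Casp1 KO normoxia, and at 10.8, 5.52 and 6.00 CPM in WT OIR and 7.11, 8.98 and 4.73 CPM in Casp1 KO OIR. Tyrobp was at 4.09, 3.38 and 6.52 CPM in WT normoxia and 6.38, 1.45 and 1.21 CPM in Casp1 KO normoxia, and at 9.55, 4.60 and 4.0 CPM in WT OIR and 7.34, 7.45 and 5.35 CPM in Casp1 KO OIR. Both genes overlapped between the genotypes in each condition.

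Between the genotypes in OIR, 1 member of 34 was called, Lgmn, higher in Casp1 KO by 0.72 ± 0.17 on the log2 scale (adjusted p = 0.00643). Among all genes 0.263% were called higher and 0.312% lower. Its groups overlapped, and the call did not hold by DESeq2 (adjusted p = 0.151), after filterByExpr (adjusted p = 0.298), over genes with 10 or more counts throughout (adjusted p = 0.264), or without WT OIR replicate 1, WT OIR replicate 2 or Casp1 KO OIR replicate 3. Grn was higher in each Casp1 KO OIR library than in each WT OIR library, at 0.63 ± 0.18, with an adjusted p of 0.0545. Without WT OIR replicate 3, which stood apart, 4 members were called higher in Casp1 KO OIR, Lgmn, Cd63, Grn and Gpnmb, and calls over all genes went up as well, to 2.07% higher and 1.58% lower. The other large values were of P2ry12, at -1.03 ± 0.54, Laptm5, at 0.67 ± 0.42, and Spi1, at 0.53 ± 0.63, all with adjusted p-values of at least 0.61. Laptm5 was at 7.84, 6.63 and 3.63 CPM in WT OIR against 13.8, 9.85 and 5.14 CPM in Casp1 KO OIR, and in normoxia at 3.73, 5.70 and 7.83 CPM in WT and 3.46, 6.97 and 9.90 CPM in Casp1 KO. WT and Casp1 KO overlapped in both conditions.

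Whether OIR acted on the members differently in the 2 genotypes was tested by the interaction of OIR and genotype over all 12 libraries. It called 0 of 34 members, against 0.604% of all genes called higher and 0.527% lower. At an unadjusted p under 0.05 there were 6, 4 of them with the larger effect in Casp1 KO (C3, Cd63, Grn and Lgmn) and 2 with the smaller (P2ry12 and Ptprc), and DESeq2 called 0. Lgmn came closest, at 0.75 ± 0.22 with an adjusted p of 0.0538, then Cd63, at 0.55 ± 0.17 with 0.0832, and Grn, at 0.66 ± 0.24 with 0.198. That of Tyrobp was 0.69 ± 0.74 (adjusted p = 0.912) and that of C1qa 0.56 ± 0.42 (adjusted p = 0.755). Without WT OIR replicate 3, Lgmn and Cd63 were called, Lgmn with an adjusted p of 2.47e-05, and calls over all genes were 1.27% higher and 1.19% lower. Lgmn alone was called without WT normoxia replicate 2 (adjusted p = 0.00484), Casp1 KO normoxia replicate 2 (0.0264), Casp1 KO OIR replicate 1 (0.0489) or Casp1 KO OIR replicate 2 (0.0369), where 0.345% to 0.541% of all genes were called higher. With WT normoxia replicate 2 thinned, Lgmn was called too (0.0395), and with WT normoxia replicate 2 and WT OIR replicate 3 both left out, Lgmn and Cd63 were. In these 0.635% and 1.31% of all genes were called higher.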

How the data were processed

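Retinal RNA was made into QuantSeq FWD 3' libraries, sequenced as single reads of 75 bases, aligned to mm10 with STAR 2.7.5a and counted per gene with HTSeq 0.6.1, per the labels and the methods of the study. The deposited table holds the authors' counts as whole numbers, without normalization. The gene annotation, strand setting and treatment of reads with several matches are not given in the sources used here. No molecular identifiers are described.

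Groups were taken from the labels. The test was edgeR's quasi-likelihood test (version 4.0.16, under R 4.3.3), with TMM normalization. A gene entered when its libraries held 1 count or more, and p-values were adjusted by Benjamini-Hochberg over all genes tested, with a threshold of 0.05. Comparisons of 2 groups used their own 6 libraries, and the interaction and the effect over both genotypes used all 12. Values after ±, written SE, are the absolute log2 fold change divided by the square root of the test's F statistic. They are thus derived from the test and are not standard errors reported by the fit. CPM were scaled by TMM factors of all 12 libraries. A count of 0 was limited by 3 reads, or 0.134 to 0.871 CPM, for counting error only. The scripts were tested on simulated data. Alternatives were DESeq2 1.42.0, its size factors, library size alone, other count filters, a replicate block, a thinned WT normoxia replicate 2, 1 fit of all libraries and each library left out.

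The members and the other lists were chosen with earlier results of these data known. Full statistics are given for members called in any comparison, and for the 5 largest absolute log2 fold changes of each comparison among members with more than 3 reads in every library.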

Additional observations from a re-analysis of the deposited data

How the results depend on the processing

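Of 804 repeats of a named member's log2 fold change under an alternative setting, 723 kept direction and side of the threshold, 69 lost the call, 12 gained one and 0 changed direction. Of 33 calls, 18 held under every alternative run. In WT OIR only Serping1 of the 7 did. In Casp1 KO OIR Ctsd, Cd63, Gpnmb, C1qa, C1qb, C4b and Serping1 did, and between genotypes in OIR the Lgmn call did not. The rest of the 18 were calls over both genotypes, which use the same libraries. A member that a filter removed was not counted for that alternative. In WT OIR against WT normoxia the 7 members called higher became 4 with filterByExpr, where 1.56% of all genes were called higher. With WT normoxia replicate 2 and WT OIR replicate 3 both left out, an alternative chosen after seeing the data, 1 member (Lgmn) was called lower. There 2.51% of all genes were called lower. In Casp1 KO against WT in OIR the 1 call became 0 with DESeq2, with filterByExpr and over genes with 10 or more counts in each library. It became 3 with all 12 libraries in one fit. Of all genes, 0.9%, 0.0893%, 0.104% and 0.547% were called higher in these alternatives, in this order. For the interaction, the 0 calls became 1 when WT normoxia replicate 2 was thinned, and 2 with both libraries left out. There 0.635% and 1.31% of all genes were called higher. Over both genotypes the 13 calls became 7 with at least 10 counts in every library, a filter that leaves fewer members to test. Under that filter 4.2% of all genes tested were called higher. Leaving out 1 library at a time gave 4 to 8 members higher and 0 to 1 lower in WT OIR, and 8 to 13 higher in Casp1 KO OIR. It gave 0 to 4 higher between genotypes in OIR, 0 to 2 higher for the interaction, 11 to 13 higher over both genotypes and 0 between genotypes in normoxia. Shares of all genes moved too. Those called higher were 0.978% to 2.14% in WT OIR (1.45% to 2.9% lower) and 1.86% to 2.09% in Casp1 KO OIR. They were 0.127% to 2.07% between genotypes in OIR, 0.345% to 1.27% for the interaction and 1.87% to 2.28% over both genotypes. Between genotypes in normoxia, 0.246% to 0.429% were higher and 0.337% to 0.535% lower. The causes were not tested.

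With the replicate number as a replicate block, 7 members were higher in WT OIR, 11 in Casp1 KO OIR, 0 between genotypes in normoxia, 1 between genotypes in OIR, 0 for the interaction and 12 over both genotypes. Of all genes, 1.32%, 2.56%, 0.4%, 0.294%, 0.641% and 2.22% were called higher, in the same order. Deviations of same-numbered libraries correlated at -0.0388 to 0.0457, so the numbers were not taken to pair the libraries. Members with few reads, such as Cd74 (26 reads over the 12 libraries) and Lyz2 (34), are limited by depth.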
